A study of Mus musculus with 6 samples.

Results

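Adipose progenitors are recognised by a small set of surface and subset markers, and 10 of these genes, of 55011 in the deposited count table, are described here: Dpp4, Pi16, Anxa3, Limch1, Smpd3, Ly6a, Cd34, Thy1, Ly6c1 and Cd9. They were taken by gene symbol, and all 10 passed the filter on low counts. Polyadenylated RNA was sequenced from 6 samples of stromal cells grown from mouse visceral fat and negative for the Il33-EGFP reporter, which marks cells that express the cytokine IL-33. After 3 days, 3 samples had received vehicle (PBS) and 3 had received irisin/HSP90α at 10 nM, shortened to irisin hereafter. The labels give no strain, age or number of animals and do not say whether replicates were separate cultures, so the p-values reflect only how far these samples differ among themselves, a spread that may be technical. They also leave unsaid whether HSP90α was present with PBS. Irisin is a hormone released from a muscle membrane protein, and HSP90α, a chaperone, can act outside cells.

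New adipocytes come from stromal progenitors that lie around vessels and in the connective tissue of fat. The earliest cells of this lineage carry DPP4 and PI16 and lie in the reticular interstitium, and they give rise to committed preadipocytes that carry ICAM1. SCA-1 (gene Ly6a), CD34 and CD90 (gene Thy1) have long been used to sort progenitors from fat. LY6C and CD9 are used to part fibro-inflammatory from adipogenic progenitors of visceral fat. The question put to the 6 libraries was whether these markers differ between treated and untreated stromal cells.

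Of the 10 markers, 5 fell with irisin and the other 5 did not pass the test. Smpd3 was 3.10-fold lower, Cd34 2.65-fold, Thy1 2.46-fold, Limch1 2.02-fold and Ly6c1 1.49-fold. Dpp4, Anxa3, Ly6a and Cd9 lay within 1.11-fold of their PBS mean in the fitted change, and Pi16 was 1.41-fold higher without passing. Among all 12296 genes tested, 396 (3.22%) were called lower and 516 (4.2%) higher, 7.42% in either direction, by edgeR's quasi-likelihood test at an adjusted p of 0.05. With libraries scaled by total counts alone, that split was 602 lower and 422 higher, with the same 5 markers lower. None of the markers was called higher by that test, although Pi16 passed at an unadjusted p under 0.05 and was called by DESeq2 and by limma-voom. The values of 6 of the 10 did not overlap between the groups, 5 below and 1 above PBS, against 11.5% of all genes tested below and 12.1% above (23.6% in all). The median log2 fold change was -0.36 over the 10 markers and -0.01 over all genes. Because the markers were chosen with earlier results of these data known, these shares are a description.

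Levels below are CPM, counts scaled to library size, and triplets run over replicates 1, 2 and 3. Log2 fold changes (LFC), with their standard error, are positive where irisin was higher, and 95% intervals are not adjusted for the number of genes. In bulk RNA, fewer cells of a type and less RNA per cell cannot be told apart.

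**Figure D1:**
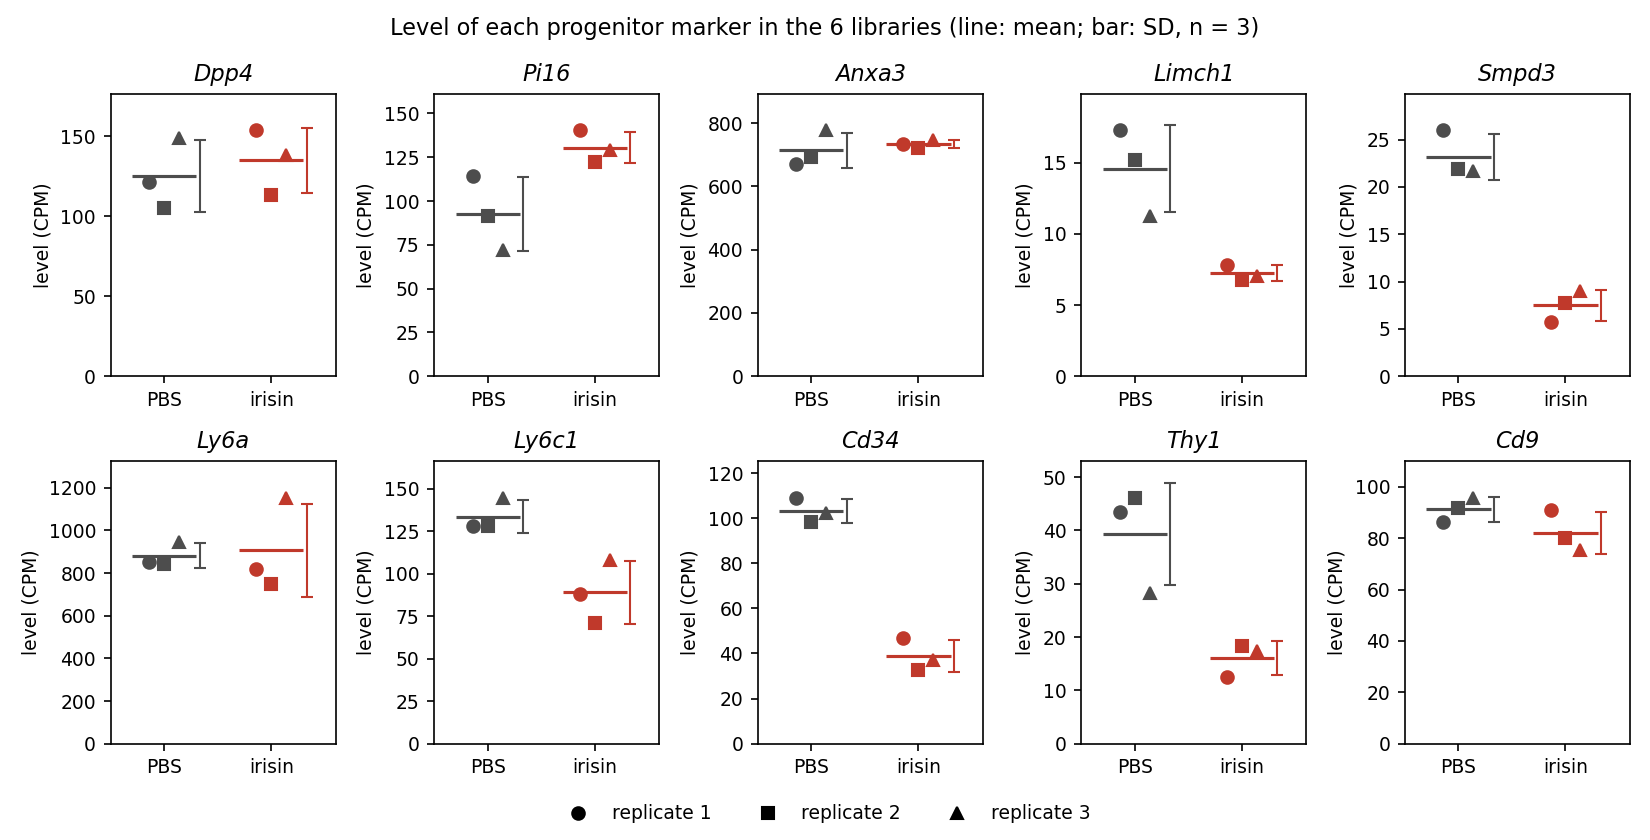
Level of each marker (CPM, axis from 0) in the 3 PBS libraries (grey) and 3 irisin libraries (red), with symbols for replicates, the group mean as a line and its SD as a bar. Cd34, Thy1, Limch1, Smpd3 and Ly6c1 lie lower in every irisin library than in any PBS library, Pi16 lies higher, and the other 4 overlap.

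The genes lie on 8 chromosomes, and 2 of them, Ly6a and Ly6c1, stand next to other members of the Ly6 family on chromosome 15. Positions are those of GENCODE M21 on the mouse build GRCm38 (mm10), and all 10 are annotated as protein-coding. Ly6a spans 74994877 to 74998031 and Ly6c1 spans 75044018 to 75048830 on chromosome 15, both on the minus strand. Dpp4 lies on chromosome 2 (62330073 to 62412231), Pi16 on chromosome 17 (29317680 to 29330593), Cd34 on chromosome 1 (194938819 to 194961279), Thy1 on chromosome 9 (44043384 to 44048579) and Cd9 on chromosome 6 (125460266 to 125494791). Chromosome 5 holds Anxa3 (96793339 to 96845966) and Limch1 (66745827 to 67057158), and chromosome 8 holds Smpd3 (106252548 to 106337988). Counts are sums over whole genes, so a change cannot be placed in an exon or an untranslated region.

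Exons of other genes overlap 6 of the markers, and the strand setting of the counting is not given in the sources used here. Of these, the longest is that of Smpd3 with Prmt7 on the opposite strand, 247 of the 5232 exon bases of Smpd3, and Prmt7 held 357 to 507 counts per library. The partners of Dpp4, Cd34, Cd9 and Anxa3 held at most 9 counts in any library. Pi16 shares 222 bases with a gene on the opposite strand that the table does not list.

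Ly6c1 has a near-identical neighbour, Ly6c2, whose coding sequence of 393 bases is 97.7% identical, with 9 substitutions and the longest identical stretch 188 bases long. Reads from such a stretch could be assigned to neither gene or to both, so the level of Ly6c1 is uncertain to that extent. Exon bases outside the coding sequence were not compared, and exon length was 1677 bases for Ly6c1 and 2740 for Ly6c2. The 60 coding bases with the most differences, bases 6 to 65 of both genes in the GENCODE transcripts, hold 6 of the 9. They are shown because, within the coding sequence, only reads over differing letters tell the genes apart (differing bases in capitals).
Ly6c1: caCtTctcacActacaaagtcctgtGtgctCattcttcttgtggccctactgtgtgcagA
Ly6c2: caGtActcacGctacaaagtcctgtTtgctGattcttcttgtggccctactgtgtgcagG
Ly6c2 itself held 0 to 3 counts per library, and Ly6c1 held 369 to 881. With gaps in the alignment counted as differences, the coding sequence of Ly6a is 81.8% identical to that of Ly6c1 (9 gap columns). That of Ly6e is 48.9% identical (37 gap columns).

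Promoters were matched in RefSeq (GRCm38.p6, 250 bases before to 50 after the start) for 6 of the 10 markers, with 9 starts in all. Those of Cd34 and Ly6c1, which fell, and of Dpp4, which was not called, are shown for comparison, with matches to the letters searched in capitals. Both strands were searched, and shares are of 32851 promoters of this length. The TATA box was searched as TATAAA (held by 13.6%). The box bound by nuclear factor Y was searched as CCAAT (37.4%). The GC box bound by SP1 was searched as GGGCGG (35.7%). For STAT factors the search was for TTCNNNGAA (8.3%), and for C/EBP factors it was for TTGCNNAA (10.8%).
Cd34, chr1:194938571-194938870, plus strand: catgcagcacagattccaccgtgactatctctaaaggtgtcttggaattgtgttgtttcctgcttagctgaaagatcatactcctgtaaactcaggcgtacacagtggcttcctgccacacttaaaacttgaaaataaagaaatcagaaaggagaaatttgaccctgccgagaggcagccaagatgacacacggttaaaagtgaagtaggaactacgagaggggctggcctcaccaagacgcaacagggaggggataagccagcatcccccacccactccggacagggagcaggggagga
Ly6c1, first start, chr15:75048788-75049087, minus strand: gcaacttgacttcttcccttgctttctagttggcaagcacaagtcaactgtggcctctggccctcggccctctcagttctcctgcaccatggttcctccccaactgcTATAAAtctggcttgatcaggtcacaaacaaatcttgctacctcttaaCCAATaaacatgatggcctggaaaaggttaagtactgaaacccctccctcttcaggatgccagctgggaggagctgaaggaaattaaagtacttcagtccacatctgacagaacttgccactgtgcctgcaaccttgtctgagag
Dpp4, chr2:62412182-62412481, minus strand: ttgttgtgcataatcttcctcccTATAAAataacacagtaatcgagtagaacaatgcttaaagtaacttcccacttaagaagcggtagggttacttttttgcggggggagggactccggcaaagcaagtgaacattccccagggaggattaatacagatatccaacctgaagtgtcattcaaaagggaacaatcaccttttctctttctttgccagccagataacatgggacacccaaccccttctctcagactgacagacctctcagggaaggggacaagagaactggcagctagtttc
The Cd34 window held none of the 5 sets of letters. That of the first Ly6c1 start held 1 match to the TATA box and 1 to the nuclear factor Y box, which did not overlap. The window of the second Ly6c1 start, not shown, held none. That of Dpp4 held 1 match to the TATA box. Where a match lay relative to the start was not taken into account. A match is a description of letters and not a bound site.

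Of the 5 markers of the interstitial progenitor subset, 2 fell and 3 did not pass. Dpp4 encodes the surface peptidase that trims incretins and chemokines, and its levels were 121, 105 and 149 CPM in PBS and 154, 113 and 138 CPM in irisin. The groups overlapped, with the 2 highest values in irisin replicate 1 and PBS replicate 3. Its LFC was 0.11 ± 0.14 (adjusted p = 0.774), with an interval of -0.19 to 0.42. Anxa3 encodes a calcium-dependent phospholipid-binding protein and was 669, 694 and 777 CPM in PBS against 735, 722 and 746 CPM in irisin. The 3 irisin values lay inside the PBS range (LFC 0.04 ± 0.08, adjusted p = 0.872, interval -0.14 to 0.22). With total counts alone the sign of Anxa3 turned (LFC -0.04).

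Pi16 encodes a secreted protein of the CAP family that marks the same interstitial cells as Dpp4. It stood at 115, 91.3 and 72.0 CPM in PBS and at 140.3, 122 and 129 CPM in irisin. Every irisin library lay above every PBS library, while the PBS values were spread more widely (SD 21.3 against 9.10 CPM). The change did not pass (LFC 0.49 ± 0.14, adjusted p = 0.0633, interval 0.18 to 0.81). Pi16 passed as higher without PBS replicate 1 (LFC 0.68, adjusted p = 0.00929) and without PBS replicate 3 (LFC 0.35, adjusted p = 0.0420). Over all alternatives its adjusted p ran from 0.000513 to 0.186.

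Limch1 and Smpd3, the markers with the lowest level per length, both fell. Limch1 encodes an actin-associated protein that activates non-muscle myosin, and its levels were 17.3, 15.2 and 11.2 CPM in PBS and 7.84, 6.76 and 7.07 CPM in irisin. All irisin values lay below the lowest PBS value, that of replicate 3 (LFC -1.02 ± 0.21, adjusted p = 0.00772). The Limch1 call was lost without PBS replicate 1 (LFC -0.87, adjusted p = 0.0526).

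Smpd3 encodes neutral sphingomyelinase 2, which makes ceramide from membrane sphingomyelin. It fell from 26.0, 21.9 and 21.7 CPM to 5.76, 7.73 and 8.96 CPM, and the highest irisin value was under the lowest PBS value by more than the range within either group. Its LFC of -1.63 ± 0.19 (adjusted p = 9.35e-05) was the largest fall among the 10 markers and held in every alternative run (LFC -1.79 to -1.47). Among 8630 other tested genes of at least 10 CPM, those near to Smpd3 in their centred log2 levels over the 6 libraries included Plin4, a lipid droplet protein of adipocytes, and Sort1, a sorting receptor. Their distances were 0.36 and 0.43 on the log2 scale, against a median of 2.05 over all genes compared. Their LFCs were -1.61 and -1.64. Because the distance spans both groups, these LFCs and the gap to the median follow largely from the fall of Smpd3 itself. The likeness is therefore a description. Of 8 mature adipocyte markers tested, all 8 fell by edgeR (median LFC -2.22), led by Aqp7, a glycerol channel (LFC -2.90 ± 0.22), Plin1, which coats lipid droplets (LFC -1.71 ± 0.14), and Plin4. The count was 7 by limma-voom and 6 without PBS replicate 3, where Cfd (adjusted p = 0.110) and Car3 (0.0553) were not called. The summed level of the 10 listed was 736 to 1177 CPM in PBS and 168 to 222 CPM in irisin (exact two-sided permutation p = 0.1, the smallest that 3 against 3 allows). The part of such cells in the fall of Smpd3 was not tested.

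**Figure D2:**
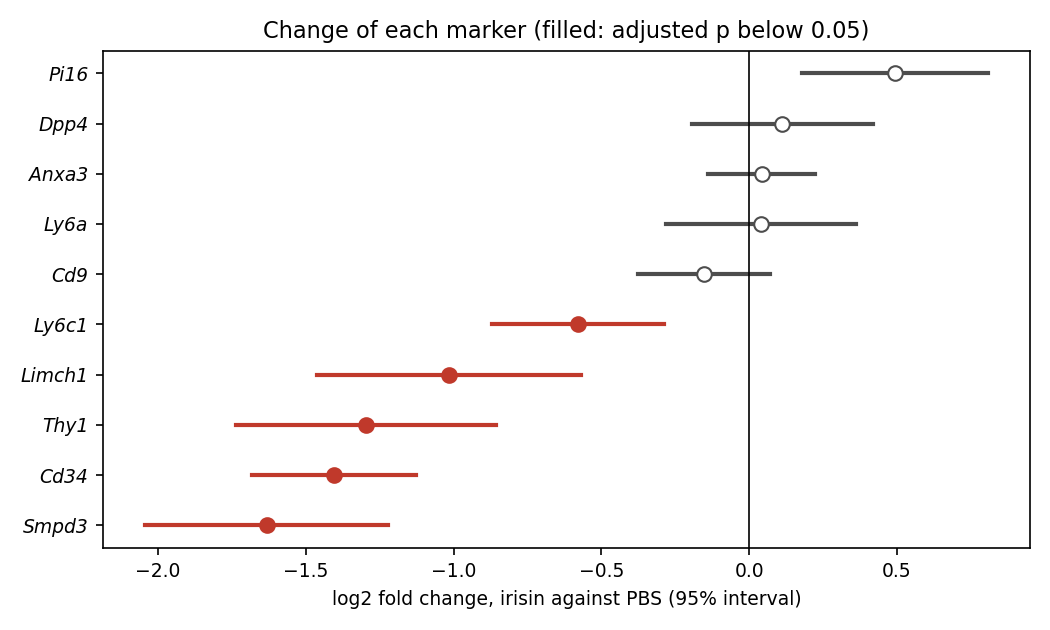
Log2 fold change of each marker, irisin against PBS, with its 95% interval, and filled points where the adjusted p was below 0.05. Smpd3 (-1.63), Cd34 (-1.40), Thy1 (-1.30), Limch1 (-1.02) and Ly6c1 (-0.58) are filled, and the intervals of Dpp4, Anxa3, Ly6a and Cd9 cross 0.

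Of the 3 sorting antigens of fat progenitors, Cd34 and Thy1 fell and Ly6a did not pass. Cd34 encodes a sialomucin of progenitor and endothelial cells and fell from 109, 98.2 and 102 CPM to 46.7, 32.7 and 37.2 CPM. The groups were far apart beside their spread (SD 5.42 and 7.17 CPM), and the LFC was -1.40 ± 0.13 (adjusted p = 1.21e-05). Thy1 encodes a lipid-anchored surface glycoprotein of stromal cells and fell from 43.4, 46.1 and 28.4 CPM to 12.5, 18.4 and 17.4 CPM. PBS replicate 3 was the lowest of its group and still above every irisin library (LFC -1.30 ± 0.20, adjusted p = 0.00138). The calls of Cd34 and Thy1 held in every alternative run, with LFCs of -1.56 to -1.30 for Cd34 and of -1.48 to -1.14 for Thy1.

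Ly6a, whose product SCA-1 is a lipid-anchored surface protein, did not pass. It stood at 852, 844 and 947 CPM in PBS and at 819, 747 and 1152 CPM in irisin, so that the irisin libraries held both the lowest and the highest value. Its LFC was 0.04 ± 0.14 (adjusted p = 0.938, interval -0.28 to 0.36), and the sign turned between alternatives (-0.17 to 0.17).

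Ly6c1, of the same family, fell from 128, 128 and 145 CPM to 88.0, 71.3 and 108 CPM. Every irisin library lay below every PBS library, and irisin replicate 3 was the nearest (LFC -0.58 ± 0.13, adjusted p = 0.0188). The Ly6c1 call was lost without PBS replicate 1 (adjusted p = 0.0525), without irisin replicate 1 (0.0665) and without irisin replicate 2 (0.0874). Cd9, a tetraspanin of the plasma membrane, was 86.2, 91.9 and 95.7 CPM in PBS and 91.1, 80.0 and 75.3 CPM in irisin. The groups overlapped, and the change did not pass (LFC -0.15 ± 0.10, adjusted p = 0.511, interval -0.37 to 0.07).

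Both Ly6 genes were highest in replicate 3 of their group. The ratio of Ly6c1 to Ly6a counts within a library needs no scaling between libraries, and it was 0.150, 0.151 and 0.153 in PBS and 0.107, 0.0955 and 0.0940 in irisin. Within PBS the ratio varied by an SD of 0.0014, less than the 0.0057 that counting alone gives, and within irisin by 0.0074 against 0.0046. The ratio of Cd34 to Dpp4 was 0.897, 0.935 and 0.686 in PBS and 0.304, 0.288 and 0.269 in irisin. That of Pi16 to Dpp4 overlapped, at 0.943, 0.869 and 0.482 against 0.913, 1.08 and 0.933. The ratios were chosen after the values were seen, and of 6 compared, 5 did not overlap (exact two-sided permutation p = 0.1 each, the smallest possible, and 0.12 adjusted over the 6). The Pi16 ratio gave an exact p of 0.3.

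Interferon response genes, a class that includes Ly6a, Ly6c1 and Ly6e by their known induction, differed between libraries too. Their summed level over 26 genes was 590, 551 and 996 CPM in PBS and 1027, 807 and 1666 CPM in irisin, with Ly6a, Ly6c1 and Ly6e not counted in the sum. Ly6e stood at 341, 306 and 421 CPM in PBS and at 462, 391.6 and 724 CPM in irisin (LFC 0.56 ± 0.25, adjusted p = 0.322). Replicate 3 was the highest of its group for Ly6a, Ly6c1, Ly6e and the sum, in PBS and in irisin. Of 23 tested, 4 were called higher by edgeR and 0 lower (0 lower at an unadjusted p under 0.05, by DESeq2 or by limma-voom). They were Gbp2, a GTPase (LFC 0.91 ± 0.13), Parp14, an ADP-ribosyltransferase (LFC 0.96 ± 0.15), Psmb8, an immunoproteasome subunit (LFC 0.82 ± 0.17), and Irf1, a transcription factor (LFC 0.59 ± 0.16). Only 2 were called when PBS replicate 1 or irisin replicate 3 was left out, and 7 with genes of low count kept. Irf1 was the least stable of the 4. Among runs that dropped a single library, Irf1 passed only where irisin replicate 2 was the one dropped (adjusted p 0.0555 to 0.209 in the rest). Nor did Irf1 pass with total counts alone, no robust dispersion or the replicate block (adjusted p 0.0541 to 0.0969). The summed level gave an exact two-sided permutation p of 0.2, and its part in the levels of the Ly6 genes was not tested.

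**Figure D3:**
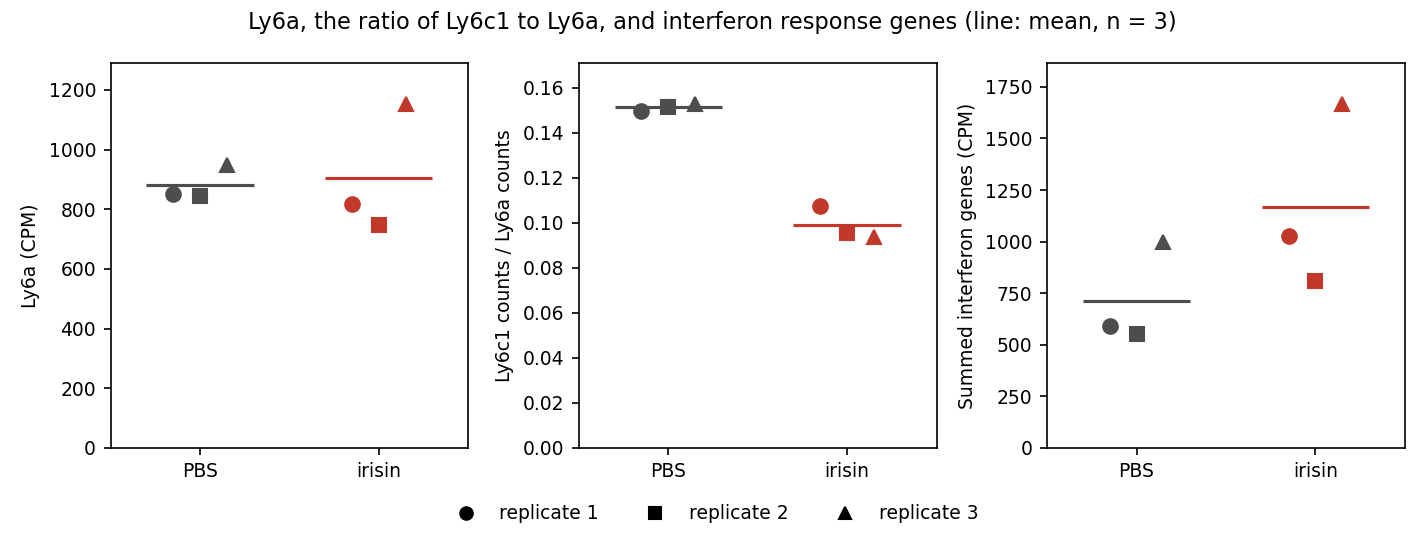
Left, Ly6a level (CPM); middle, Ly6c1 counts divided by Ly6a counts; right, summed level of 26 interferon response genes (CPM), each by library with the group mean as a line. Ly6a overlaps between groups, the ratio stays at 0.150 to 0.153 in PBS and at 0.0940 to 0.107 in irisin, and the sum is highest in irisin replicate 3.

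Per length of exon, the markers covered a wide range of levels in PBS. Ly6a led with 731 ± 47.5 CPM per kilobase, followed by Anxa3 (196 ± 15.5), Ly6c1 (79.6 ± 5.80) and Cd9 (44.7 ± 2.35). Dpp4 (19.8 ± 3.54), Pi16 (14.5 ± 3.35), Cd34 (14.2 ± 0.744) and Thy1 (13.1 ± 3.19) followed, and each overlapped its neighbour in that order over the 3 libraries. Smpd3 (4.43 ± 0.462) and Limch1 (1.42 ± 0.299) were lowest. In irisin Pi16 (20.5 ± 1.43) still overlapped Dpp4 (21.4 ± 3.22) but no longer Cd34 (5.33 ± 0.984), and Cd34 and Thy1 (5.37 ± 1.06) overlapped each other. Cd9 (40.2 ± 3.96) then overlapped Ly6c1 (53.2 ± 11.03).

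**Figure D4:**
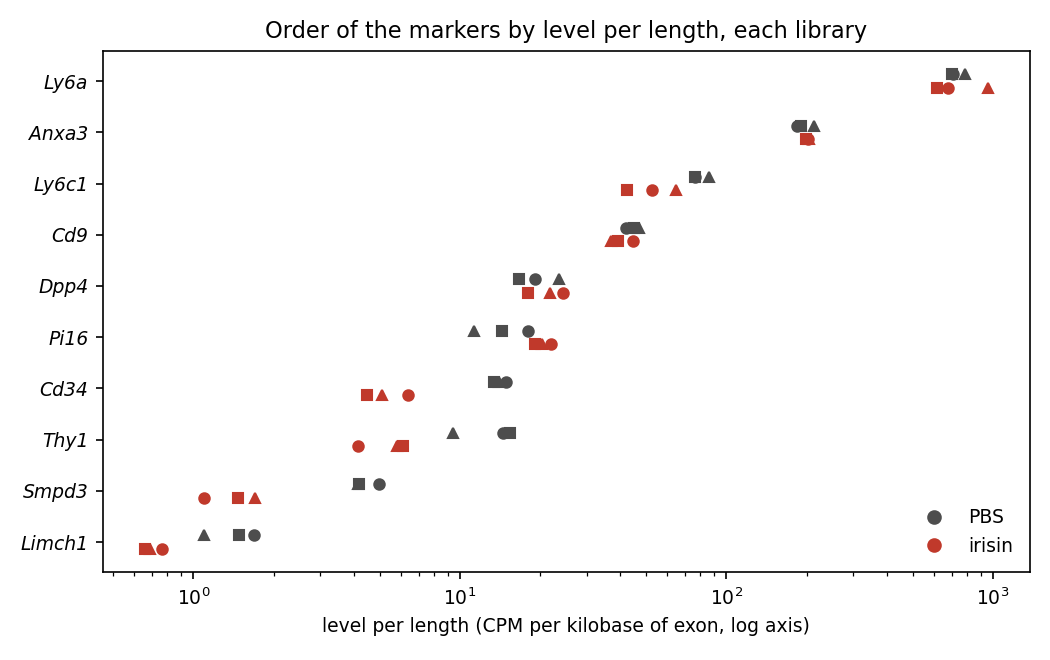
Level of each marker per kilobase of exon (CPM per kilobase, log axis) in every library, PBS in grey and irisin in red, ordered by the PBS mean, with symbols for replicates 1 (circle), 2 (square) and 3 (triangle). Dpp4, Pi16, Cd34 and Thy1 lie close together in PBS, and in irisin Cd34 and Thy1 lie apart from Dpp4 and Pi16.

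Other known markers of interstitial progenitors held called falls and called rises. Of 20 tested, 6 fell, 2 rose and 12 did not pass (median LFC -0.33, against -0.01 over all genes). Dpt, the matrix protein dermatopontin, fell from 531 ± 15.2 to 282 ± 11.5 CPM (LFC -0.91 ± 0.08, adjusted p = 7.52e-06). Igfbp6, which binds insulin-like growth factors, fell from 201 ± 21.7 to 93.8 ± 3.91 CPM (LFC -1.10 ± 0.10, adjusted p = 1.06e-05). Ackr3, a scavenging receptor for CXCL12, rose from 72.9 ± 3.92 to 166 ± 21.9 CPM (LFC 1.18 ± 0.11, adjusted p = 1.23e-05). Sema3c, a secreted guidance protein, rose from 23.8 ± 2.41 to 38.6 ± 4.68 CPM (LFC 0.70 ± 0.14, adjusted p = 0.00619), a call lost without irisin replicate 3 (adjusted p = 0.0503).

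The remaining falls of that list, named after their values were seen, were Pcolce2, an enhancer of procollagen processing (481 ± 83.2 to 273 ± 19.3 CPM), Tmem100, a membrane protein (14.3 ± 2.07 to 6.13 ± 1.35 CPM), Cd248, the stromal surface protein endosialin (418 ± 72.6 to 271 ± 34.8 CPM), and Has1, a hyaluronan synthase (8.09 ± 0.830 to 3.89 ± 1.43 CPM). Cd248 lost its call without PBS replicate 1, PBS replicate 2 or irisin replicate 2, and Has1 without any of these or irisin replicate 3. Wnt2 (8.68 ± 1.92 to 4.65 ± 1.14 CPM, adjusted p = 0.0593) and Cd55 (34.4 ± 1.45 to 27.2 ± 0.210 CPM, adjusted p = 0.115), both widely used with Dpp4, did not pass. The falls numbered 10 when libraries were scaled by total counts alone and 4 without PBS replicate 1, PBS replicate 2 or irisin replicate 2.

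Among committed preadipocyte markers, 11 of 21 tested fell, 2 rose and 8 did not pass (median LFC -0.75). The lowest p-values were those of Cd36, a fatty acid transporter (LFC -1.97 ± 0.11), Apoe, a lipid-carrying apolipoprotein (LFC -1.46 ± 0.10), and Gdf10, a TGF-β family member (LFC -1.74 ± 0.13). The 11 falls included Fabp4, Cd36, Lpl, Pparg and Plin2, which mature adipocytes also express, and these may not be all that are shared. The summed level of mature adipocyte markers, mostly Car3, was 736 to 1177 CPM in PBS and 168 to 222 CPM in irisin. It moved with these falls, and its part in them was not tested. The 2 rises were Icam1 (LFC 0.86 ± 0.08), the adhesion molecule used to sort these cells, and Steap4, a metalloreductase (LFC 0.81 ± 0.08). Of 9 markers of CD142-positive stromal cells, 3 fell, 1 rose and 5 did not pass (median LFC -0.50). They were Mgp, an inhibitor of calcification (LFC -1.22 ± 0.15), Vit, a matrix protein (LFC -0.64 ± 0.11), and Abcg1, a cholesterol exporter (LFC -1.61 ± 0.28), which fell, and Cyp1b1, a cytochrome P450 (LFC 1.08 ± 0.09), which rose. F3, the gene of CD142 itself, did not pass (LFC -0.18 ± 0.12, adjusted p = 0.492).

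**Figure D5:**
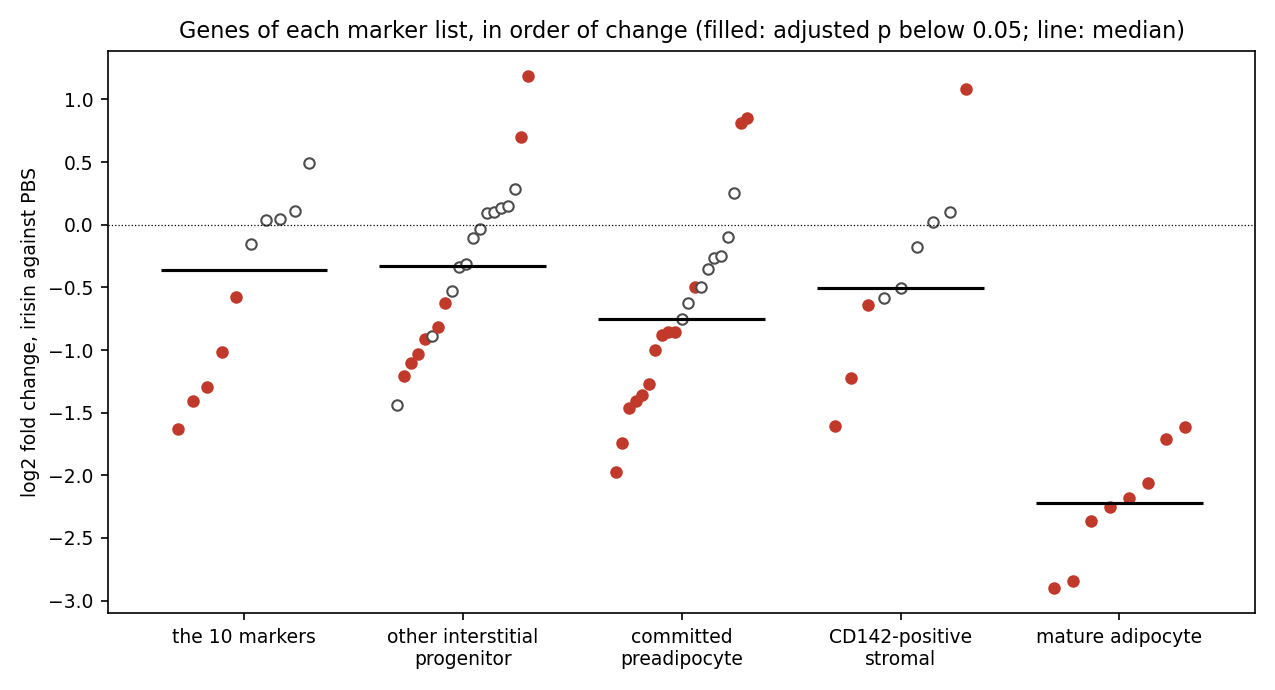
Log2 fold change of each tested gene in 5 marker lists, in order of size within a list, with filled points where the adjusted p was below 0.05 and the list median as a line. The medians are -0.36 for the 10 markers, -0.33 for other interstitial progenitor markers, -0.75 for committed preadipocyte markers, -0.50 for CD142-positive stromal markers and -2.22 for mature adipocyte markers.

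Relatives of the markers, and genes of like name or function, were counted from lists. Of 21 other sphingomyelin and ceramide enzymes tested, 3 rose and none fell at adjusted p by edgeR, with 4 lower at an unadjusted p under 0.05, 0 by DESeq2 and 1 by limma-voom. The rises were Smpd1, the acid sphingomyelinase (107 ± 8.36 to 152 ± 6.16 CPM, LFC 0.51 ± 0.09, adjusted p = 0.00343), Ugcg, which makes glucosylceramide (7.79 ± 0.844 to 25.2 ± 3.70 CPM, LFC 1.69 ± 0.18, adjusted p = 3.87e-05), and Sphk1, a sphingosine kinase (LFC 0.54 ± 0.09, adjusted p = 0.00223). With total counts alone, with genes of low count kept, or without irisin replicate 2, 1 of these 21 enzymes was called lower.

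Of 6 other peptidases listed with Dpp4 and tested, among them Fap, Dpp9 and Dpp3, edgeR called 0 in either direction. The count was also 0 at an unadjusted p under 0.05 and by DESeq2 or limma-voom. Of 19 other tetraspanins and their partners, 3 rose and none fell by edgeR (0 lower at an unadjusted p under 0.05, by DESeq2 or by limma-voom, and 1 lower without PBS replicate 3). The rises were Cd82 (LFC 0.76 ± 0.14, adjusted p = 0.00363), Tspan11 (LFC 2.50 ± 0.50, adjusted p = 0.00671) and Tspan18 (LFC 0.57 ± 0.13, adjusted p = 0.0188), whose call was lost without irisin replicate 1 or 2 (adjusted p 0.0889 and 0.0584). The rises numbered 2 without either of those libraries. Tspan11 was low throughout, with 4, 1 and 4 counts in PBS and 16, 18 and 16 counts in irisin. Of 12 other annexins and their S100 partners, 2 fell and none rose by edgeR (0 higher at an unadjusted p under 0.05, by DESeq2 or by limma-voom). They were S100a10 (LFC -0.85 ± 0.09, adjusted p = 4.33e-05) and Anxa2 (LFC -0.39 ± 0.10, adjusted p = 0.0387), which form one complex. Anxa2 lost its call without PBS replicate 1 or any one irisin replicate (adjusted p 0.0574 to 0.211). Of the 3 other tested genes of the Ly6 family, Lypd1, which binds nicotinic receptors, fell (15.4 ± 4.97 to 5.82 ± 0.549 CPM, LFC -1.42 ± 0.25, adjusted p = 0.00332).

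Other genes used to tell stromal cells apart at the surface went both ways, with 2 of 11 higher, 2 lower and 7 not called. Pdgfra, a growth factor receptor (LFC 0.60 ± 0.09), and Vcam1, an adhesion molecule (LFC 0.50 ± 0.12), rose, while Entpd1, the ectonucleotidase CD39 (LFC -1.01 ± 0.18), and Itgb1, an integrin subunit (LFC -0.52 ± 0.13), fell. Vcam1 lost its call with total counts alone and when PBS replicate 1 or 2 or irisin replicate 1 or 3 was left out, and Itgb1 when PBS replicate 1 or 2 or irisin replicate 1 or 2 was. Each count was then 1. Of 12 other genes with LIM or calponin homology domains, the kind found in Limch1, 3 rose, 2 fell and 7 did not pass. The rises were Micall2 (LFC 1.46 ± 0.14), Pdlim3 (LFC 1.22 ± 0.27, not called without irisin replicate 3) and Pdlim4 (LFC 0.84 ± 0.10), and the falls were Pdlim1 (LFC -0.65 ± 0.09) and Pdlim2 (LFC -0.43 ± 0.08). The falls numbered 5 without PBS replicate 3 and by limma-voom. Of 4 other genes of the CAP family of Pi16, Glipr2 (LFC 0.32 ± 0.08, adjusted p = 0.0378) and Pi15 (LFC 0.59 ± 0.16, adjusted p = 0.0356) rose, and neither was called with total counts alone or with PBS replicate 1 or 2 or irisin replicate 1 or 2 left out. Without irisin replicate 3, 1 was called. Of the 2 other sialomucins tested beside Cd34, edgeR called 0 in either direction, with 0 at an unadjusted p under 0.05 and 0 by DESeq2 or limma-voom.

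Markers of other cells were measured beside these results. All 10 general stromal markers were present, with a summed level of 39863 to 47404 CPM in PBS and 53190 to 58068 CPM in irisin. That sum rested mostly on collagen genes, Col3a1 first (mean 19190 and 25249 CPM). Of the 10, Pdgfra (LFC 0.60 ± 0.09) and Col1a1 (LFC 0.49 ± 0.11) rose, Lum (LFC -0.76 ± 0.14) and Dpt fell, and 6 did not pass. The call of Col1a1 was lost without irisin replicate 2 or 3, and without PBS replicate 3 the counts were 4 higher and 4 lower. Endothelial cells carry CD34 and LY6C, and 12 endothelial markers summed to 41.1 to 53.1 CPM in PBS and 27.8 to 34.4 CPM in irisin. Of these, 7 were under 1 CPM in every library, with Pecam1 at 0 to 6 counts, Cdh5 at 0 to 5 and Cldn5 at 0 to 1, and the sum rested mostly on Tek, the one called (LFC -0.59 ± 0.15, adjusted p = 0.0303), whose call was lost when PBS replicate 1 or 2 or irisin replicate 2 or 3 was left out. Pericyte and smooth muscle markers summed to 2281 to 2585 CPM in PBS and 1896 to 2166 CPM in irisin, mostly Acta2. Of 8 tested, 3 fell by more than that sum did and 5 did not pass. They were Cspg4, the proteoglycan NG2 (LFC -1.63 ± 0.29, adjusted p = 0.00324), Des, the filament protein desmin (LFC -1.13 ± 0.13, adjusted p = 7.9e-05), and Abcc9, a potassium channel subunit (LFC -0.98 ± 0.25, adjusted p = 0.0285). Abcc9 lost its call without any one library but PBS replicate 3 (adjusted p 0.058 to 0.152), and with a count minimum of 50 only 1 of the list was called. Leukocyte markers summed to 66.6 to 83.6 and 62.8 to 88.1 CPM, mostly Csf1r, with Ptprc at 0 to 3 counts. Of the 12 listed, 8 were under 1 CPM in every library. Mesothelial markers summed to 46.8 to 52.1 and 52.6 to 61.0 CPM, mostly Wt1, with Msln at 0 to 3 counts. Of these 13, 7 were under 1 CPM in every library. The part of these cells in the changes of the markers was not tested.

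Total counts were 5271309 to 6745799 per library, and mitochondrial genes took 0.846% to 0.916% of them. The first principal component (47.1% of variance) parted irisin from PBS. On the next (23.9%), PBS replicate 3 and irisin replicate 1 stood away from the remaining 4. Without both, 4 of the 10 markers were called lower and 1, Pi16, higher (LFC 0.29, adjusted p = 0.0324). Ly6c1 was then no longer called (LFC -0.50, adjusted p = 0.358), while the calls of Cd34, Thy1, Limch1 and Smpd3 held.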

How the data were processed

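Messenger RNA was measured in 3 PBS and 3 irisin libraries. Build mm10, featureCounts and STAR 2.7.3a are named, per the submitters' processing notes. The sources used here do not give the strand setting, the rule for multi-mapping reads or the annotation release. The deposited values are raw counts for each gene symbol, made by the authors without normalization. Sample titles gave each library its group and number.

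From these counts, edgeR 4.0.16 (R 4.3.3) computed TMM factors, kept 12296 of 31436 genes with any count by filterByExpr at a count minimum of 10, and ran the robust quasi-likelihood test. P-values were adjusted by Benjamini-Hochberg over all genes, at 0.05. Standard errors are the log2 fold change divided by the root of F, and intervals are 95%. CPM are counts over the effective library size of the tested genes, and levels per length are CPM over merged GENCODE M21 exon length. Summed levels and ratios were compared by exact two-sided permutation. Steps were first tested on simulated data.

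The members and lists were chosen with earlier results of these data known. All 10 members are described. In each context list the 3 called genes of lowest p, and every gene called in a direction with 5 or fewer, are named, and others were named after their values were seen. Genes most like a member were sought for the called member of largest fall, as none rose, and 1 gene found so is not reported here.

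Tests were repeated with other scalings (RLE, upper quartile, total counts), other tools (DESeq2 1.42.0, and limma 3.58.1 as voom with quality weights), dispersion without the robust option, all genes or a count minimum of 50, the replicate block, each library left out in turn, Ly6c1 and Ly6c2 added up, and 0.10 as the threshold. After the data were seen, 1 more was added, without both PBS replicate 3 and irisin replicate 1.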

Additional observations from a re-analysis of the deposited data

How the results depend on the processing

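The count of markers called lower stayed at 5 under RLE and upper quartile factors, total counts, DESeq2, limma-voom, no robust dispersion, both filter changes and the replicate block, and was 3 to 5 with single libraries left out. The count of markers called higher, 0, became 1 (Pi16) with DESeq2 (adjusted p = 0.0262), with limma-voom (0.0497), with the replicate block (0.0449), when genes of low count were kept (0.000513) and without both PBS replicate 3 and irisin replicate 1, and ran from 0 to 1 with single libraries left out. At an adjusted p threshold of 0.10 Pi16 was also called. Summing Ly6c1 and Ly6c2 left the call of Ly6c1 in place. Over all genes, calls lower numbered 602 with total counts and 623 with limma-voom against 396, and single libraries left out gave 238 to 585 lower and 336 to 705 higher, against 516. Without both PBS replicate 3 and irisin replicate 1 they were 788 and 892. Same-numbered libraries did not deviate together over all genes (correlations -0.24, 0.16 and -0.18 for numbers 1, 2 and 3). Over all pairs across the groups, the largest correlation was 0.36, of PBS replicate 3 with irisin replicate 1. These libraries also stood away on the second principal component. Such correlations may miss a factor shared by fewer genes, and the sample titles do not say whether the numbers pair libraries. The replicate block gave 269 genes lower and 422 higher, and 12 interferon response genes higher against 4. Depth limits Limch1 most, at 35 to 119 counts per library.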
